A study of Mus musculus with 14 samples.

Results

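The genes described here are 42 synaptic adhesion and organizer genes outside the cadherin family. They are 2 neurexins, 3 neuroligins, 4 LRRTMs, 6 contactins, 4 contactin-associated proteins, 3 cerebellins, 6 SLITRKs, 3 FLRTs, 4 teneurins, 3 latrophilins, Il1rapl1 and 3 LAR-type receptor phosphatases. They were chosen by symbol, and all 42 were found among the 55359 gene IDs of each count table. All 42 passed the filter on low counts, and the lowest count of any of them in a library was 225.

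RNA was measured by bulk sequencing of poly-A RNA from the superior colliculus, the midbrain structure that receives retinal axons, in ICR/CD-1 mouse pups at postnatal day 6. Between postnatal days 0 and 1, pups had received an eye injection of 0.3 to 0.5 µL of 50 mM carbenoxolone (cbx), a gap junction blocker given to abolish the spontaneous waves of activity of the young retina, or of saline. The groups were cbx superficial layer (4 libraries), saline superficial layer (3), cbx deep layer (4) and saline deep layer (3), all of the same strain and age. Each library pooled 3 brains, and the spread that p-values rest on is therefore that between pools, not between single pups.

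Synapses are held together and specified by pairs of adhesion proteins that meet across the cleft. On the presynaptic side stand the neurexins, which bind neuroligins, LRRTMs and secreted cerebellins, and the LAR-type receptor phosphatases, which bind SLITRKs and Il1rapl1. Latrophilins bind teneurins and FLRTs, while contactins, immunoglobulin proteins anchored to the membrane by a lipid, pair with contactin-associated proteins along axons and at the nodes of Ranvier. In the superior colliculus such proteins are studied for their part in the targeting of retinal axons and in synapse formation.

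Total counts ranged from 32004952 to 48776827 per library. Midbrain tectum markers were present in all groups. Pax7 was at 151 to 167 CPM (counts scaled by library size) in cbx superficial and 160 to 164 CPM in saline superficial libraries. In deep libraries it was at 87.2 to 95.4 CPM after cbx and 99.7 to 116 CPM after saline. The 10 tectum genes summed to 492 to 506 CPM in cbx superficial against 879 to 951 CPM in cbx deep libraries. After saline the sums were 478 to 512 CPM in superficial against 881 to 952 CPM in deep libraries. In the superficial layer 4 were higher and 4 lower after each treatment. Of 6 cerebellar markers, Gabra6 and Atoh1 had 0 counts in every library. The 6 summed to 171.2 to 193.8 CPM in cbx superficial against 98.67 to 112.3 CPM in cbx deep libraries. They summed to 165.2 to 195.6 CPM in saline superficial against 104.5 to 111.1 CPM in saline deep libraries. Of the 4 tested, 2 were higher and 1 lower in the superficial layer after each treatment. Sums of 6 forebrain genes ran from 22.71 CPM in a saline deep to 40.53 CPM in a saline superficial library. Those of 8 genes of ventral midbrain and hindbrain neurons were at most 1.84 CPM. Tissue from neighbouring regions was not tested for. The pools differed in sex: cbx pool 4 had 0 counts of the Y-linked gene Ddx3y in either layer, and saline pool 1 had 0.572 to 1.94 CPM of Xist, which is expressed from the inactive X chromosome. Ddx3y averaged 18.1 CPM (0 to 38.6) in cbx superficial against 51.0 CPM (37.0 to 70.8) in saline superficial libraries, and 19.2 CPM (0 to 37.2) in cbx deep against 47.8 CPM (30.4 to 69.5) in saline deep libraries. Xist averaged 616 CPM in cbx superficial against 256 CPM in saline superficial libraries, and 509 CPM in cbx deep against 177 CPM in saline deep libraries. Cbx pool 4 and saline pool 1 are left out together in the fits described as without both pools of one sex, and the part of sex in the cbx differences was not tested further. In bulk tissue, fewer cells of a type and less RNA per cell cannot be told apart.

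Compared per length, as CPM per kilobase of exon averaged over all 14 libraries, the highest member was Nlgn2, the neuroligin of inhibitory synapses, at 87.8. It was followed by the axonal contactin Cntn1 at 72.6, the latrophilin Adgrl1 at 72.2, the neurexin Nrxn2 at 71.4 and the receptor phosphatase Ptprs at 48.5. The place of Cntn1 in this order depended on the layer, with 51.6 in cbx superficial and 60.7 in saline superficial libraries, but 86.9 in cbx deep and 93.6 in saline deep libraries. Adgrl1 and Nrxn2 were within 1 SD of each other in cbx superficial libraries, at 61.2 ± 3.4 and 60.3 ± 4.1 CPM per kilobase (SD, n = 4), and in both groups of deep libraries. In saline superficial libraries, at 70.9 ± 1.5 and 68.7 ± 1.4 (SD, n = 3), they were farther apart than that. The lowest members were Il1rapl1 at 1.96, Lrrtm4 at 1.87 and Slitrk6 at 1.75 CPM per kilobase.

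Within several families the levels spread widely. Among neuroligins Nlgn2 exceeded Nlgn1, the neuroligin of excitatory synapses, at 5.72 CPM per kilobase. Among contactins Cntn1 stood above Cntn2 at 12.4 and the remaining 4, which lay between 3.28 for Cntn5 and 4.13 for Cntn4. Among teneurins Tenm3, which takes part in retinocollicular mapping, was at 45.4 and Tenm2 at 35.8, against 5.44 for Tenm4 and 3.13 for Tenm1. Without per-length scaling, mean levels ran between 7.43 CPM and 987 CPM, with a median of 57.7 CPM.

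**Figure D1:**
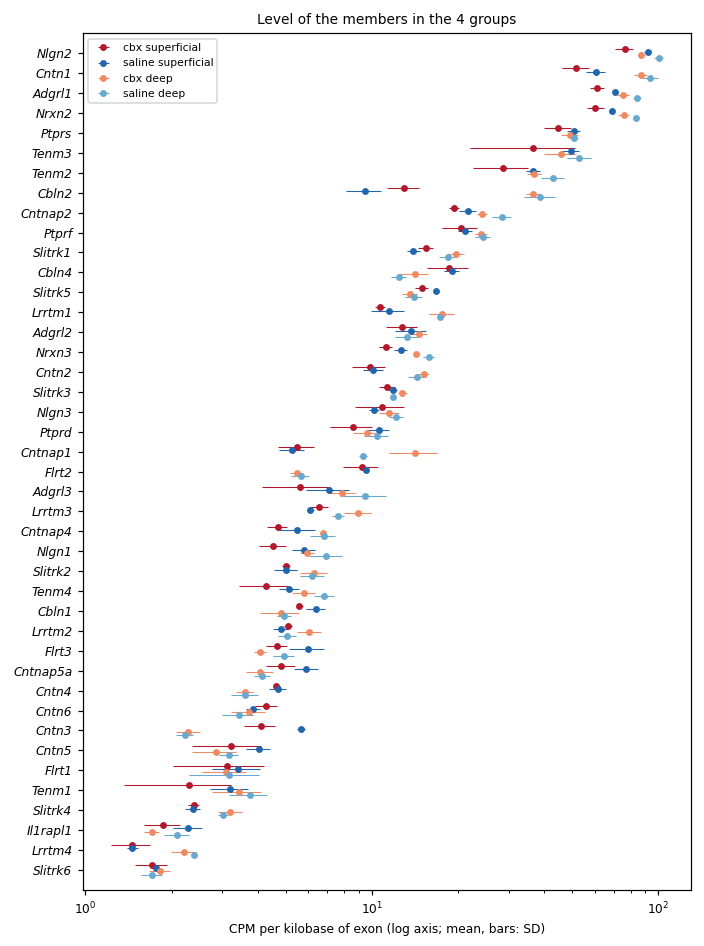
Level of each of the 42 genes in CPM per kilobase of exon (log axis), ordered by the mean over all libraries; points are group means and bars are SD over 4 cbx or 3 saline libraries. Nlgn2, at 87.8 over all libraries, stands at the top and Slitrk6, at 1.75, at the bottom, and the points of Cbln2 and Cntn3 separate widely by layer.

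Most of the calls were between layers, and most of these were lower in the superficial layer. Superficial against deep libraries after cbx, 5 members were higher and 22 lower at an adjusted p under 0.05 (edgeR quasi-likelihood test, Benjamini-Hochberg over 20330 genes), which is 64.3% of the 42 against 32.2% of all genes tested. After saline 7 members were higher and 16 lower, which is 54.8% against 18.4% of all genes. Among the 12006 genes with a mean of at least 5 CPM, a level chosen after the data were seen, 40.5% were called after cbx and 24.4% after saline. Over all genes 18.1% were higher and 14.1% lower after cbx, and 9.67% higher and 8.73% lower after saline. The median log2 difference of the members, superficial minus deep, was -0.27 after cbx and -0.22 after saline, against 0.018 and 0.042 over all genes.

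The same 21 members passed after both treatments, each in the same direction. Higher in the superficial layer were Cntn3, Cntn4, Cntnap5a, Cbln4 and Flrt2. Lower were Nrxn2, Nrxn3, Lrrtm1, Lrrtm3, Lrrtm4, Cntn1, Cntn2, Cntnap1, Cntnap2, Cntnap4, Cbln2, Slitrk1, Slitrk2, Slitrk4, Tenm4 and Adgrl1. No member was called in opposite directions. The cbx and saline comparisons share no library, but both come from the same fit, with a shared estimate of the spread. The share of all genes called after both treatments was not computed. Libraries of the layers did not overlap for 26 members after cbx (4 higher, 22 lower), against 29.6% of all genes (16.7% higher, 13% lower). They did not overlap for 27 members after saline (8 higher, 19 lower), against 36.7% of all genes (20.2% higher, 16.5% lower).

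**Figure D2:**
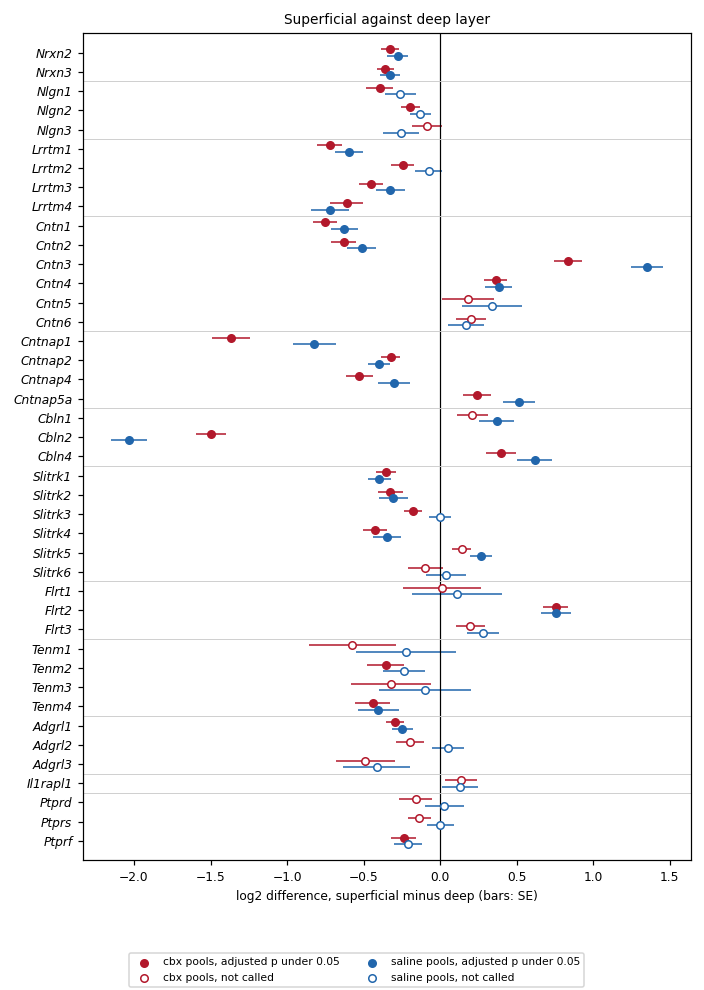
Log2 difference between superficial and deep libraries (superficial minus deep) of each gene by family, after cbx and after saline; bars are SE and filled points have an adjusted p under 0.05. Cbln2 lies farthest left, at -1.50 after cbx and -2.04 after saline, and Cntn3 farthest right, at 0.84 and 1.35.

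Among the secreted cerebellins, which bridge neurexins to glutamate receptors of the delta type, the members took opposite directions. Cbln2 was at 41.5, 38.4, 39.6 and 30.4 CPM in cbx superficial libraries, against 114, 105, 104 and 99.7 CPM in cbx deep libraries. After saline it was at 27.5, 23.5 and 31.1 CPM in superficial libraries, against 128, 103 and 105 CPM in deep libraries. No superficial library came near a deep one, and the log2 difference was -1.50 (SE 0.10) after cbx, adjusted p = 1.6e-09, and -2.04 (SE 0.12) after saline, adjusted p = 5.77e-10. Cbln4, which also binds neurexins, ran the other way. It was at 66.4, 53.5, 47.3 and 48.6 CPM in cbx superficial against 46.4, 42.1, 40.4 and 34.7 CPM in cbx deep libraries, and at 51.5, 57.2 and 57.3 CPM in saline superficial against 36.3, 33.9 and 38.1 CPM in saline deep libraries. The superficial libraries were all higher, by 0.40 (SE 0.099) after cbx and 0.62 (SE 0.12) after saline on the log2 scale. Cbln1, the cerebellin of cerebellar granule cells, was higher after saline by 0.37 (SE 0.11, adjusted p = 0.0284) and not called after cbx, at 0.21 (SE 0.099, adjusted p = 0.113).

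Contactins split as well. Cntn3 was at 22.8, 27.6, 29.4 and 30.2 CPM in cbx superficial libraries, against 15.7, 17.4, 14.5 and 14.1 CPM in cbx deep libraries. After saline it was at 36.8, 39.2 and 38.4 CPM in superficial libraries, against 14.1, 14.7 and 16 CPM in deep libraries. All superficial libraries were above all deep ones, with log2 differences of 0.84 (SE 0.091) after cbx and 1.35 (SE 0.11) after saline. Cntn4 was also higher, by 0.36 (SE 0.076) after cbx and 0.38 (SE 0.088) after saline.

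Cntn1, which forms the axonal side of paranodal junctions together with Cntnap1, was lower in the superficial layer. Its levels were 419.8, 505, 546 and 476 CPM in cbx superficial against 874, 781, 831 and 793 CPM in cbx deep libraries. They were 609, 524 and 584 CPM in saline superficial against 938, 883 and 828 CPM in saline deep libraries. The layers did not overlap, and the log2 difference was -0.75 (SE 0.077) after cbx and -0.63 (SE 0.089) after saline. Cntn2, which partners Cntnap2 beside the node, was lower, at -0.63 (SE 0.082) after cbx and -0.51 (SE 0.094) after saline. Cntn5 and Cntn6 did not pass in either comparison, with differences of 0.17 to 0.34.

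Of the contactin-associated proteins, Cntnap1, a constituent of the paranodal junction, had the largest difference below 0 after Cbln2. It was at 25.4, 32.8, 35.4 and 35.3 CPM in cbx superficial against 77.4, 105, 83.6 and 67.4 CPM in cbx deep libraries. In saline superficial libraries it was at 33.0, 32.4 and 27.4 CPM, against 56.8, 53.5 and 53.8 CPM in saline deep libraries. No superficial library reached a deep one, and the difference was -1.37 (SE 0.12) after cbx and -0.82 (SE 0.14) after saline. Cntnap2, which clusters potassium channels beside the node, was lower, at -0.32 (SE 0.062) and -0.40 (SE 0.072), and Cntnap4, found in interneurons, was at -0.53 (SE 0.089) and -0.30 (SE 0.10), each given after cbx and then after saline. Cntnap5a was higher, by 0.24 (SE 0.091) after cbx and 0.52 (SE 0.11) after saline, although its layers overlapped after cbx. Its call after cbx (adjusted p = 0.0487) was kept in 3 of 10 alternative fits and in 2 of 8 fits with 1 library left out.

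The neurexins, presynaptic hubs of this network, were both lower in the superficial layer. Nrxn2 was at -0.33 (SE 0.060) after cbx and -0.28 (SE 0.070) after saline, and Nrxn3 at -0.36 (SE 0.057) and -0.33 (SE 0.066). With each library's trends with length and GC content removed, Nrxn2 was at -0.14 (SE 0.060, adjusted p = 0.0768) after cbx and no longer passed. In CPM, Nrxn3 averaged 141 ± 7.0 in cbx superficial and 180.3 ± 5.0 in cbx deep libraries (SD, n = 4 each), and 159 ± 8.4 in saline superficial and 199 ± 8.5 in saline deep libraries (SD, n = 3 each).

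Of their postsynaptic partners, 4 of 4 LRRTMs, leucine-rich repeat proteins of excitatory synapses, were lower after cbx and 3 of 4 after saline. Lrrtm1 was at 32.9, 30.7, 33.5 and 32.4 CPM in cbx superficial against 61.4, 50.6, 52.3 and 49.4 CPM in cbx deep libraries. After saline it was at 30.0, 35.2 and 39.2 CPM in superficial against 51.3, 53.4 and 53.1 CPM in deep libraries. Every superficial library was below every deep one, with a difference of -0.72 (SE 0.081) after cbx and -0.60 (SE 0.094) after saline. Lrrtm4 was at 10.8, 8.65, 7.48 and 8.74 CPM in cbx superficial against 13.9, 15, 13.7 and 11.8 CPM in cbx deep libraries, and at 9.28, 9.13 and 8.51 CPM in saline superficial against 15.1, 14.6 and 14.7 CPM in saline deep libraries. Its groups did not overlap, and it was lower, at -0.61 (SE 0.11) after cbx and -0.72 (SE 0.12) after saline. Lrrtm3 was lower, at -0.45 (SE 0.079) and -0.32 (SE 0.092). Lrrtm2 was lower after cbx, at -0.24 (SE 0.076, adjusted p = 0.0174), with -0.08 (SE 0.088, adjusted p = 0.639) after saline. Of the exon bases of Lrrtm4, 25.1% also belong to another gene, so part of its reads may not be its own.

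Neuroligins differed less between layers. Nlgn1 was lower after cbx, at -0.40 (SE 0.087) and Nlgn2 at -0.19 (SE 0.060), while after saline none of the 3 was called, at -0.26 to -0.13. The differences of Nlgn3, which serves both kinds of synapse, were -0.09 (SE 0.10) after cbx and -0.25 (SE 0.12) after saline. Nlgn3 shares 41.2% of its exon bases with another gene.

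The SLITRKs are postsynaptic partners of the receptor phosphatases. Slitrk1 was lower, at -0.36 (SE 0.066) after cbx and -0.40 (SE 0.077) after saline, Slitrk2 at -0.33 (SE 0.082) and -0.31 (SE 0.095), and Slitrk4 at -0.43 (SE 0.078) and -0.35 (SE 0.090). Slitrk3, known from inhibitory synapses, was lower after cbx, at -0.18 (SE 0.060), with -0.00 (SE 0.069) after saline. Slitrk5 was higher after saline by 0.27 (SE 0.071), with 0.14 (SE 0.061) after cbx, and Slitrk6 did not pass in either.

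Flrt2, a ligand of latrophilins and of the netrin receptor Unc5, had the largest called difference above 0 after Cntn3 in both comparisons. It was at 58.9, 67.8, 80.2 and 77.8 CPM in cbx superficial against 39.4, 42.7, 45.1 and 41.6 CPM in cbx deep libraries. After saline the values were 73.7, 74.8 and 72.4 CPM in superficial against 39.9, 45.7 and 45.0 CPM in deep libraries. The layers did not overlap, and the difference was 0.75 (SE 0.083) after cbx and 0.76 (SE 0.096) after saline. Flrt1 and Flrt3 were not called in either.

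Among teneurins, large adhesion proteins that bind latrophilins across the cleft, Tenm4 was lower, at -0.44 (SE 0.12) after cbx and -0.40 (SE 0.13) after saline, and Tenm2 at -0.36 (SE 0.12) after cbx, with -0.24 (SE 0.14) after saline. The call of Tenm4 after saline (adjusted p = 0.046) was kept in 0 of 6 fits with 1 library left out, at adjusted p of 0.053 to 0.158. Tenm1 and Tenm3 did not pass. The latrophilin Adgrl1 was lower, at -0.30 (SE 0.059) and -0.25 (SE 0.068), and the receptor phosphatase Ptprf after cbx at -0.24 (SE 0.082), with -0.21 (SE 0.094) after saline. Il1rapl1, Ptprd, Ptprs, Adgrl2 and Adgrl3 were not called. Among the 15 members not called after cbx the largest differences were those of Tenm1, -0.57 (SE 0.28), and Adgrl3, -0.49 (SE 0.19). Among the 19 not called after saline they were those of Adgrl3, -0.41 (SE 0.22), and Cntn5, 0.34 (SE 0.20).

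The pool, meaning same-numbered libraries of a treatment, was also used as a block, since these libraries deviated together. With it 33 members were called after cbx and 27 after saline, and none of the calls above was lost. Over all genes 37.4% were then called after cbx and 22.9% after saline. Added after cbx were Cntn6, Slitrk5 and Flrt3 as higher and Adgrl2, Adgrl3 and Ptprd as lower. Added after saline were Flrt3 as higher and Nlgn1, Nlgn3 and Ptprf as lower. Against a fold change of 1.2, 11 members passed after cbx and 10 after saline, against 15.2% and 8.76% of all genes. Without both pools of one sex, 23 of the 27 calls after cbx and 16 of the 23 after saline were kept, while over all genes 25.7% and 10.2% were called. The 7 lost after saline were Nrxn2, Lrrtm3, Cntnap4, Slitrk2, Slitrk4, Tenm4 and Adgrl1. Members that passed in only 1 treatment are not shown to differ between treatments by that.

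The layers also differed in cell type markers. In the superficial layer 12 of 12 meningeal fibroblast genes and 8 of 8 genes of dividing cells were higher after both treatments. The meningeal genes summed to 1354 to 3840 CPM in cbx superficial against 57.2 to 78.5 CPM in cbx deep libraries, and to 929 to 1488 CPM in saline superficial against 88.3 to 108 CPM in saline deep libraries. Of 12 pan-neuronal genes 8 were lower and 1 higher after cbx, and 5 were lower and 1 higher after saline. Their sums were 5606 to 5878 CPM in cbx superficial against 6741 to 7420 CPM in cbx deep libraries. After saline they were 5913 to 6394 CPM in superficial against 7109 to 7286 CPM in deep libraries. Of 9 oligodendrocyte lineage genes 7 were lower and 0 higher after cbx, and 5 were lower and 1 higher after saline. Their sums were 678 to 832 CPM in cbx superficial against 1044 to 1178 CPM in cbx deep libraries. After saline they were 662 to 938 CPM in superficial against 1073 to 1326 CPM in deep libraries. Genes of dividing cells summed to 122 to 156 CPM in cbx superficial against 67.3 to 75.1 CPM in cbx deep libraries, and to 112 to 135 CPM in saline superficial against 65.4 to 67.5 CPM in saline deep libraries. Microglia genes were lower for 9 of 10 after saline, at sums of 272 to 297 CPM in saline superficial against 439 to 476 CPM in saline deep libraries. After cbx 1 was higher and 4 lower, at 355 to 376 CPM in cbx superficial against 397 to 443 CPM in cbx deep libraries. Of 8 endothelial genes 5 were higher and 1 lower after both, at 299 to 362 CPM in cbx superficial against 176 to 238 CPM in cbx deep libraries, and 341 to 349 CPM in saline superficial against 208 to 228 CPM in saline deep libraries. Red blood cell genes were higher for 5 of 6 after cbx, at 238 to 389 CPM in cbx superficial against 128 to 188 CPM in cbx deep libraries. After saline their sums overlapped, at 149 to 231 CPM in saline superficial against 127 to 185 CPM in saline deep libraries. Of 8 astrocyte genes 4 were higher and 1 lower after cbx, and 2 were higher and 2 lower after saline. They summed to 2698 to 3218 CPM in cbx superficial against 1889 to 2188 CPM in cbx deep libraries. After saline the sums were 2838 to 3500 CPM in superficial against 2197 to 2690 CPM in deep libraries. No gene of these lists was at 0 throughout a group. Their part in the differences of the adhesion genes was not tested.

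To show what lies just upstream of genes with a shared layer pattern, the 250 bases before the RefSeq start (build GRCm38.p6, gene strand) are given for 4 members called after both treatments. They are the 2 higher and the 2 lower members with the smallest p after saline among those eligible. Eligible members had a single entry in the table of promoters and passed a rule on their chromosome. That rule left out Cbln2, the lower member with the smallest p after saline (edgeR, adjusted p = 5.77e-10). Capitals mark CpG dinucleotides, the sites of cytosine methylation.
Cntn3, higher in the superficial layer, chr6:102464668-102464917, minus strand: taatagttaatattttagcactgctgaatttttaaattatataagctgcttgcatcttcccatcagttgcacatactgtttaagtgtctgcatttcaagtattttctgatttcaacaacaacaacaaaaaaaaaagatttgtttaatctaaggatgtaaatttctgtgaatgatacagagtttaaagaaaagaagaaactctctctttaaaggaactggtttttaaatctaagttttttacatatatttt
Flrt2, higher in the superficial layer, chr12:95691976-95692225, plus strand: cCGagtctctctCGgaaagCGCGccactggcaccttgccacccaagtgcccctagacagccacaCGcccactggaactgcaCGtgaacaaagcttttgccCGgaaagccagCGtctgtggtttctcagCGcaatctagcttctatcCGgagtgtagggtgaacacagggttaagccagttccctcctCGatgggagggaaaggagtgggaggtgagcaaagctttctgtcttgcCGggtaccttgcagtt
Lrrtm1, lower in the superficial layer, chr6:77242227-77242476, plus strand: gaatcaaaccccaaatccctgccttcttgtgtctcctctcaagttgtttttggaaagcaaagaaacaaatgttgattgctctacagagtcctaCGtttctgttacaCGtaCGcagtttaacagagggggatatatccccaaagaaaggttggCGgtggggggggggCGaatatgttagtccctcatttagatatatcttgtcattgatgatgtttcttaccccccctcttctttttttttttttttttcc
Cntn2, lower in the superficial layer, chr1:132542941-132543190, minus strand: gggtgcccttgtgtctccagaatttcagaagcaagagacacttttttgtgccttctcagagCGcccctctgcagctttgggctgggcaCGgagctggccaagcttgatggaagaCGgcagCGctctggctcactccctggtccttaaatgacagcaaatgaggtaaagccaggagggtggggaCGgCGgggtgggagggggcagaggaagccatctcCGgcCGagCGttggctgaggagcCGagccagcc

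The 4 stretches differ as much within a direction as between directions. Of the members higher in the superficial layer, Cntn3 has 0 CpG dinucleotides and 26.4% G or C, and Flrt2 has 12 and 57.2%. Of the lower ones, Lrrtm1 has 5 and 42% and Cntn2 has 10 and 61.2%. The median over 32851 windows of the same length is 6 CpG dinucleotides and 52.4% G or C. Searched on both strands, the TATA box motif TATAAA is in none of the 4 windows and in 12.4% of all windows. The motif CCAAT is likewise in none of the 4 and in 33.8% of all, GGGCGG in none and in 32.7%, and the homeodomain motif TAATTA in none and in 4.84%. Of the 42 genes, 31 had an entry in the table.

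The main question of the design is what cbx changed within a layer. In the superficial layer Cbln2 rose, and Cntn3, Nlgn2, Nlgn1 and Flrt3 fell after cbx relative to saline. These 5 calls are 11.9% of the 42 members, against 4.33% of the 20330 genes tested and 6.06% of the genes with a mean of at least 5 CPM. Of all genes 2.68% were higher and 1.65% lower. The DESeq2 Wald test called 8 members, against 7.8% of all genes, and limma-voom 6, against 4.33%. With edgeR 18 members had an unadjusted p under 0.05. The share of all genes under that unadjusted threshold is not given here, so this count has no background. Below 0 were 33 of the 42 differences, and their median was -0.16 on the log2 scale, against 0.0094 over all genes. Libraries of the treatments did not overlap for 11 members, all lower after cbx, against 17.3% of all genes (8.96% higher, 8.29% lower).

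Cbln2 was at 41.5, 38.4, 39.6 and 30.4 CPM in cbx superficial libraries, against 27.5, 23.5 and 31.1 CPM in saline superficial libraries. The highest saline library stood just above the lowest cbx library, and the log2 difference was 0.45 (SE 0.11), adjusted p = 0.0264. Cntn3, the contactin with the largest layer difference, was at 22.8, 27.6, 29.4 and 30.2 CPM in cbx superficial against 36.8, 39.2 and 38.4 CPM in saline superficial libraries. All 4 cbx libraries were below all 3 saline libraries, with a difference of -0.47 (SE 0.096), adjusted p = 0.0115. Both genes were nearer to their level in the deep layer after cbx than after saline, although the comparisons of treatments and of layers share these superficial libraries.

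The neuroligins of inhibitory and of excitatory synapses, Nlgn2 and Nlgn1, both fell. Nlgn2 was at 405, 434, 483 and 443 CPM in cbx superficial libraries, against 545, 515 and 532 CPM in saline superficial libraries. Nlgn1 was at 51.8, 61.0, 67.8 and 62.1 CPM in cbx superficial libraries, against 85.7, 72.5 and 75.0 CPM in saline superficial libraries. Neither gene's groups overlapped, and the differences were -0.27 (SE 0.065, adjusted p = 0.0259) for Nlgn2 and -0.36 (SE 0.094, adjusted p = 0.0381) for Nlgn1. The third neuroligin, Nlgn3, was not called at 0.09 (SE 0.11). Flrt3, a latrophilin ligand, was at 22.3, 25.3, 22.7 and 20.5 CPM in cbx superficial libraries, against 31.8, 31.1 and 24.4 CPM in saline superficial libraries. The lowest saline library lay among the cbx libraries, and the difference was -0.36 (SE 0.098, adjusted p = 0.0439).

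**Figure D3:**
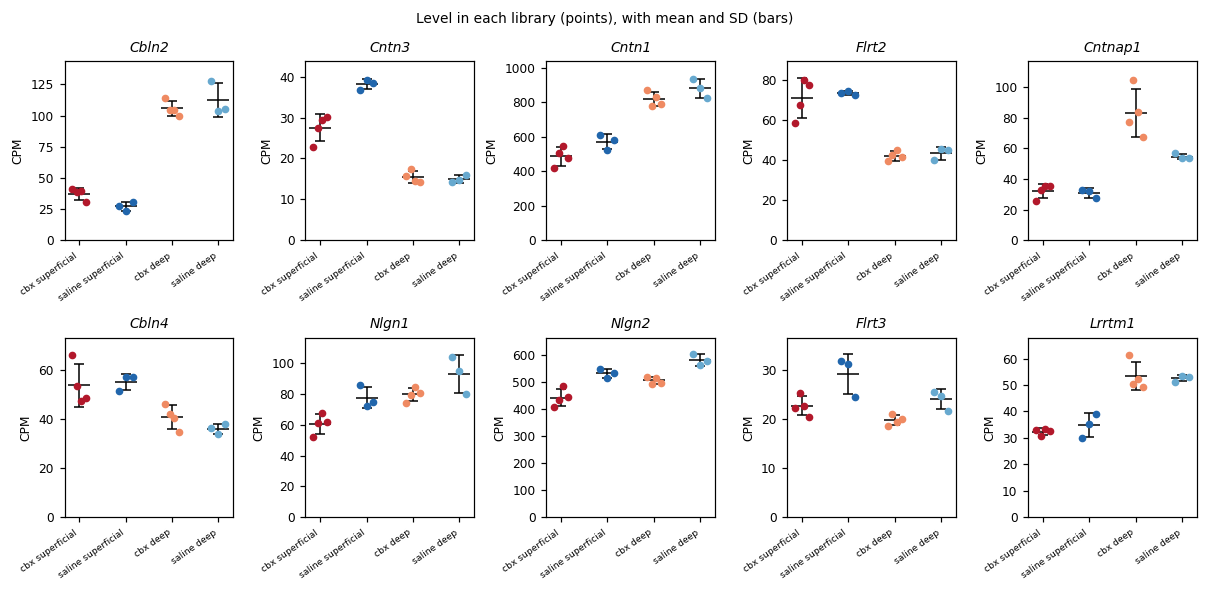
CPM in each library (points) with group mean and SD (bars) for 10 of the genes, in cbx superficial (n = 4), saline superficial (n = 3), cbx deep (n = 4) and saline deep (n = 3) libraries. Cbln2 sits between 30.4 and 41.5 CPM in cbx superficial libraries and 23.5 and 31.1 CPM in saline superficial libraries, far under the deep libraries.

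Whole families lay to one side of 0 without passing the test. The 4 teneurins had differences of -0.48 to -0.27, the 3 latrophilins of -0.34 to -0.11, the 3 receptor phosphatases of -0.30 to -0.05 and both neurexins of -0.19 to -0.17. The 4 LRRTMs lay on both sides of 0, at -0.10 to 0.11, as did the 6 SLITRKs at -0.17 to 0.14, the 4 contactin-associated proteins at -0.29 to 0.06 and the 5 contactins not called, at -0.32 to 0.15. Il1rapl1 was at -0.29, Cbln1 and Cbln4 at -0.19 and -0.04, and Flrt1 and Flrt2 at -0.13 and -0.05. The largest differences among the 37 members not called were those of Tenm1, -0.48 (SE 0.30), and Tenm3, -0.44 (SE 0.28). In both, cbx superficial replicate 1 was the lowest library: Tenm3 was at 174 CPM there and at 345, 498 and 476 CPM in the other cbx libraries, against 544, 497 and 476 CPM in saline superficial libraries, and Tenm1 was at 19.0 CPM there and at 36.9, 55.7 and 51.5 CPM in the others, against 67, 53.1 and 50.6 CPM after saline.

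These superficial calls are sensitive to the libraries used. None of the 5 passed with edgeR in a fit of the superficial libraries alone (adjusted p = 0.0545 for Cntn3), and Cbln2 alone passed without both pools of one sex. In the fit of the superficial libraries alone the differences were about as large, at -0.48 for Cntn3, 0.45 for Cbln2 and -0.36 for Nlgn1, and calls over all genes went to 0.737%, or 0.435% without both pools of one sex, in place of 4.33%. With 1 library left out, 2 of these 5 calls were kept without cbx replicate 1 or 2, and 3 without cbx replicate 3 or 4. Without cbx replicate 3 the calls of Cbln2 and Flrt3 were lost, and 5 members passed in all. Kept calls numbered 1 (Cntn3) without saline replicate 1, 0 without saline replicate 2 and 3 without saline replicate 3. Over all genes 1.79%, 0.666% and 1.13% were called without saline replicates 1, 2 and 3, in place of 4.33%. Without cbx replicates 1, 2, 3 and 4 the shares were 3.12%, 3.28%, 4.49% and 4.08%.

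In the same superficial libraries 7 of 10 microglia genes rose after cbx, and their sum was 355 to 376 CPM in cbx against 272 to 297 CPM in saline libraries. Meningeal fibroblast genes rose for 5 of 12, with sums of 1354 to 3840 CPM after cbx against 929 to 1488 CPM after saline. Of 12 pan-neuronal genes 1 was called, as higher, while their sum was 5606 to 5878 CPM in cbx and 5913 to 6394 CPM in saline libraries, without overlap. Of 6 red blood cell genes 1 rose, and their sums of 238 to 389 CPM in cbx and 149 to 231 CPM in saline libraries did not overlap. No marker of these 4 lists was at 0. Their part in the differences of the adhesion genes was not tested.

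In the deep layer 1 member was called after cbx, 2.38% of the 42 against 1.83% of all genes (1.06% higher, 0.777% lower) and 2.85% of those with a mean of at least 5 CPM. It was Cntnap1, the paranodal protein, at 77.4, 105, 83.6 and 67.4 CPM in cbx deep libraries, against 56.8, 53.5 and 53.8 CPM in saline deep libraries. All cbx libraries were higher, with a log2 difference of 0.61 (SE 0.13), adjusted p = 0.0293. No member fell at that threshold with edgeR. An unadjusted p under 0.05 was found for 11, again without a share of all genes to set beside it. The DESeq2 Wald test called 3 members, adding Nlgn2 at -0.21 and Cntnap2 at -0.24 as lower, and limma-voom called 1. Of all genes DESeq2 called 4.43% and limma-voom 1.57%. Libraries did not overlap for 11 members (4 higher, 7 lower), against 16% of all genes (7.96% higher, 8.05% lower).

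Apart from Cntnap1, the largest differences in the deep layer were those of Il1rapl1, at -0.29 (SE 0.11, adjusted p = 0.198), and Flrt3, at -0.28 (SE 0.099, adjusted p = 0.166). Lrrtm2 and Lrrtm3 were at 0.26 (SE 0.082) and 0.23 (SE 0.086) and their libraries did not overlap, but neither passed, with adjusted p of 0.115 and 0.182. Nlgn2 and Nlgn1 were again on the lower side, at -0.20 (SE 0.065) and -0.22 (SE 0.093), and did not pass. By family, the 4 teneurins were at -0.23 to -0.13, the 3 latrophilins at -0.26 to 0.14, the 3 receptor phosphatases at -0.11 to -0.02 and the 2 neurexins at -0.14. The 6 contactins were at -0.16 to 0.12, the 3 cerebellins at -0.09 to 0.18 and the 6 SLITRKs at -0.04 to 0.11. The median of the 42 members was -0.04, and 0.04 without both pools of one sex.

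The call of Cntnap1 was lost without cbx deep replicate 2 (edgeR, adjusted p = 0.0599) or 3 (0.0601). It was also lost without saline deep replicate 1 (0.0919), 2 (0.136) or 3 (0.117), and without both pools of one sex (0.0767). Over all genes 0.566%, 1.25%, 0.584%, 0.35%, 0.199% and 0.067% were called in these fits, in that order, in place of 1.83%. Beside Cntnap1, 1 of 9 oligodendrocyte lineage genes was called in the deep layer after cbx, as lower. Their sum was 1044 to 1178 CPM in cbx and 1073 to 1326 CPM in saline libraries. The myelin gene Mag was at 5.02 to 6.93 CPM in cbx deep and 4.36 to 5.10 CPM in saline deep libraries. Of 8 astrocyte genes 1 was called, as lower. Their sums, 1889 to 2188 CPM in cbx deep and 2197 to 2690 CPM in saline deep libraries, did not overlap. The part of these marker genes in the level of Cntnap1 was not tested.

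**Figure D4:**
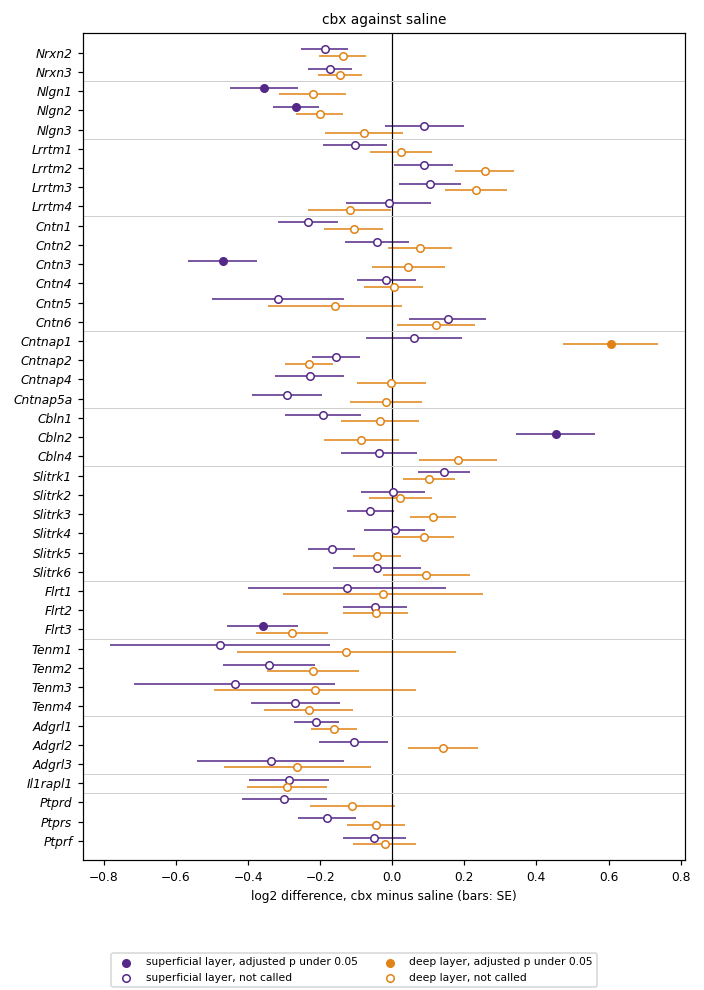
Log2 difference between cbx and saline libraries (cbx minus saline) of each gene by family, in the superficial and in the deep layer; bars are SE and filled points have an adjusted p under 0.05. Filled points are Cbln2, Cntn3, Nlgn1, Nlgn2 and Flrt3 in the superficial layer and Cntnap1 in the deep layer, and most other points of the superficial layer lie left of 0.

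Whether the cbx difference itself differed between layers was tested by the interaction, the superficial difference minus the deep difference. No member passed, nor did any of the 20330 genes (0%) with edgeR. DESeq2 and limma-voom called 0 members. For 3 members the unadjusted p with edgeR was under 0.05, and the share of all genes there is not given. Those 3 were Cbln2, Cntn3 and Cntnap1, the genes with the widest layer differences. Cbln2 was at 0.54 (SE 0.15, adjusted p = 0.316), Cntn3 at -0.52 (SE 0.14, adjusted p = 0.306) and Cntnap1 at -0.54 (SE 0.19, adjusted p = 0.447). With the pool as a block Cbln2 passed, at 0.53 (SE 0.11, adjusted p = 0.0445), and Cntn3 (adjusted p = 0.109) and Cntnap1 (0.193) did not. Of all genes 0.3% passed in that fit. Given side by side, the layer difference was -1.50 after cbx and -2.04 after saline for Cbln2, 0.84 and 1.35 for Cntn3, and -1.37 and -0.82 for Cntnap1.

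The members are long transcripts, and in both layers their cbx difference was lower the longer their exons. Their median exon length was 8.28 kilobases, between 2.89 for Cbln2 and 22.8 for Ptprd, against 4.81 for the 12006 genes with a mean of at least 5 CPM. Across the 42 members, which are not independent replicates, Spearman's rho between exon length and log2 difference was -0.45 in the superficial layer and -0.45 in the deep layer. Across 11995 genes of at least 5 CPM with a length, rho was -0.34 in the superficial and 0.04 in the deep layer. Single libraries also deviated from their group by length, with rho over the same 11995 genes of -0.595 in cbx superficial replicate 1 to 0.505 in cbx superficial replicate 4. Members below their group's mean numbered 4 in saline deep replicate 1 to 38 in cbx deep replicate 4, and 32 in cbx superficial replicate 1. Without cbx superficial replicate 1, rho between length and the superficial cbx difference was -0.34 for the members and -0.15 for those 11995 genes.

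After removal of each library's trend with length and GC content, 8 members were called in the superficial layer (1 higher, 7 lower) and 4 in the deep layer (1 higher, 3 lower). The superficial calls included all 5 given above, with Cntn3 at -0.46 and Cbln2 at 0.41, and added Cntnap5a, Tenm2 and Ptprd as lower, while the median of the members was -0.10. The deep calls added Nlgn1 at -0.28, Cntnap2 at -0.25 and Tenm4 at -0.23 as lower. Over all genes the superficial comparison then had 650 higher and 480 lower genes, in place of 545 and 335, and the deep comparison 334 higher and 385 lower, in place of 215 and 158.

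**Figure D5:**
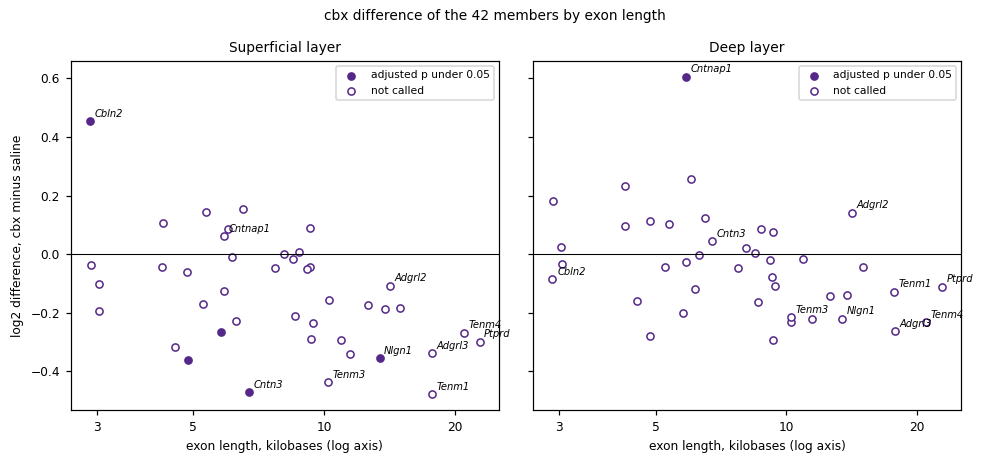
Log2 difference between cbx and saline libraries (cbx minus saline) of the 42 genes against exon length in kilobases (log axis), in the superficial layer (left) and the deep layer (right); filled points have an adjusted p under 0.05. Longer genes lie lower in both panels, with a Spearman's rho of -0.45 in each.

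A further 49 genes of synaptic adhesion and organization, such as neuronal pentraxins, C1q-like proteins, calsyntenins and cell adhesion molecules, were set beside the 42. In the superficial layer after cbx 1 rose and 6 fell, with a median of -0.18. Of all genes 4.33% were called there, and 6.06% of those with a mean of at least 5 CPM. Cadm2, a SynCAM protein, fell by 0.38 (SE 0.069), Nptxr, a pentraxin receptor, by 0.30 (SE 0.062) and Clstn2, a calsyntenin, by 0.38 (SE 0.086), while Lrfn2, a postsynaptic leucine-rich repeat protein, rose by 0.36 (SE 0.089). In the deep layer 0 were called by edgeR, DESeq2 or limma-voom, and the median was -0.09. With edgeR 8 had an unadjusted p under 0.05, for which the share of all genes is not given.

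Between layers most calls in this wider list were lower in the superficial layer as well. Superficial against deep, 4 were higher and 27 lower after cbx, and 5 were higher and 23 lower after saline. The medians were -0.24 and -0.23. Of all genes 32.2% were called after cbx and 18.4% after saline. Among genes with a mean of at least 5 CPM these shares were 40.5% and 24.4%. C1ql2, a secreted C1q-like protein that binds neurexins, was higher by 2.52 (SE 0.088) after cbx and 2.46 (SE 0.10) after saline. It averaged 100.4 ± 11.9 CPM in cbx superficial and 17.4 ± 2.0 CPM in cbx deep libraries (SD, n = 4 each), and 102 ± 2.5 CPM in saline superficial and 18.5 ± 0.62 CPM in saline deep libraries (SD, n = 3 each). Mdga1, which masks neuroligins, was lower, at -1.15 (SE 0.079) and -0.90 (SE 0.091), and Nptx1, a pentraxin that clusters glutamate receptors, at -0.97 (SE 0.078) and -0.70 (SE 0.090). After cbx its relative Nptx2 was lower, at -0.79 (SE 0.075). Adgrb1, an adhesion receptor of the BAI family, was higher by 0.63 (SE 0.070) after cbx and 0.73 (SE 0.081) after saline.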

How the data were processed

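The authors deposited 1 file per library with whole-number read counts for each gene. The submitters' processing notes list FastQC 0.11.9, STAR 2.7.9d, SAMtools 1.14, Subread 2.0.1 and featureCounts, and give 2 builds, mm10 and GRCm39, with no role for either. Which annotation and strand setting were used is not given in the sources used here. Reads of overlapping genes therefore cannot be told apart. Of the IDs, 52083 had a symbol (98.7% of counts). Exon lengths are those of merged exons in GENCODE M21.

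Counts were tested with edgeR 4.0.16 in R 4.3.3: filterByExpr by group, TMM factors, 4 group means over all 14 libraries (10 residual degrees of freedom), a robust quasi-likelihood fit, and Benjamini-Hochberg adjustment over 20330 genes at a threshold of 0.05. The test was checked on simulated data, drawn without the length trends and shared deviations of these libraries. Across the 4 comparisons of groups it found 4% to 9% of 1.2-fold, 54% to 68% of 1.5-fold and 80% to 92% of 2-fold changes. CPM were computed with TMM factors. Other settings tried were size factors by median of ratios, no filter, a filter of 1 CPM in 3 libraries, DESeq2 1.42.0, limma-voom (limma 3.58.1), a fold of 1.2, removal of length and GC trends, a replicate block, fewer libraries and, added after the data were seen, levels with no scaling factors.

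Replicate numbers come from the titles. Same-numbered libraries of both layers of a treatment deviated together (r of 0.182 to 0.394 in all 7 pairs), so the numbers pair the layers. No library was a copy of another. Every called member was named, with values per library for the up to 6 smallest p per comparison. The members and lists were chosen with earlier results of these data known.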

Additional observations from a re-analysis of the deposited data

Results flagged for a closer look

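In groups of 4 libraries, 84 sets of values (42 genes in 2 groups) were searched for a library far from its group, by its gap to the nearest other library as a share of the range. Chance flags about 1 in 20 groups, and 4 were found. Cntn5 was at 8.76 CPM in cbx superficial replicate 1, where the other cbx superficial libraries were at 15.6 to 17.2 CPM. Cntn4 was at 37.7 CPM in cbx superficial replicate 4, against 39.8 to 40.0 CPM in the others. Slitrk6 was at 8.59 CPM in cbx superficial replicate 2, against 6.66 to 6.87 CPM. Slitrk1 was at 116 CPM in cbx deep replicate 1, against 101 to 103 CPM.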

How the results depend on the processing

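No difference of a called member changed its sign under any alternative run. In the superficial layer after cbx, 5 members were called as reported, 12 with no filter on low counts, 8 with the DESeq2 Wald test, 8 with length and GC trends removed, 0 against a fold change of 1.2, 0 with only the groups compared, 1 without both pools of one sex, and 0 to 5 with 1 library left out. In the deep layer after cbx, 1 was called as reported, 3 with DESeq2, 4 with length and GC trends removed, 0 against a fold of 1.2, 0 without both pools of one sex, and 0 to 1 with 1 library left out. The replicate number as a block within a layer left 0 calls in both cbx comparisons. Same-numbered libraries of different treatments share only a number (r of -0.276 to -0.0167), so those fits say nothing of a weaker effect. Superficial against deep, 27 members were called after cbx, 11 against a fold of 1.2 and 22 to 28 with 1 library left out. After saline 23 were called, 10 against a fold of 1.2 and 16 to 23 with 1 library left out. Under all alternatives and left-out libraries 11 of the 27 and 10 of the 23 kept their call. For the interaction 0 were called as reported, 2 with no filter, 1 with the pool as a replicate block and 0 with any library left out. Of all genes 0.671% were called there with no filter and 0.3% with the pool block. The pool block lost no call of the layer comparisons. Except where a construction shows it (fewer libraries, or a fold threshold), the cause of these changes was not tested. Over all genes, superficial after cbx, a filter of 1 CPM in 3 libraries gave 538 higher and 551 lower, in place of 545 and 335. No filter, DESeq2 and removal of length and GC trends called 3.82%, 7.8% and 5.56% of all genes there, in place of 4.33%. In the deep layer after cbx these were 1.48%, 4.43% and 3.54%, in place of 1.83%. With 1 library left out, cbx against saline called 0.666% to 4.49% of all genes in the superficial and 0.199% to 1.34% in the deep layer. Superficial against deep, such fits called 26.8% to 31.1% of all genes after cbx and 12.8% to 16.1% after saline. With 3 or 4 pools a group, small differences can be missed, and exon overlap with other genes limits Nlgn3, Lrrtm4 and Adgrl1, at 41.2%, 25.1% and 15.6% of exon bases.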

Other observations

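The members differed in how steady they were between libraries of a group. The pooled standard deviation within groups on the log2 scale had a median of 0.134 over the 42 genes, against 0.123 over genes with a mean of at least 5 CPM. It was 0.437 for Tenm1, 0.403 for Tenm3, 0.395 for Flrt1, 0.297 for Cntn5 and 0.293 for Adgrl3, and Tenm1 stood at percentile 99 of all those genes. In cbx superficial libraries Flrt1 was at 10.9, 15, 23.9 and 23.5 CPM, and in saline superficial libraries at 23.4, 20.8 and 15.9 CPM, so its groups overlapped throughout.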
